A study of Homo sapiens with 13 samples.

Results

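The proteasome genes are described here as 48 protein-coding genes of the GENCODE v44 annotation of hg38 whose symbols are PSMA, PSMB, PSMC, PSMD, PSME, PSMF or PSMG followed by a number, out of 20033 protein-coding genes. All 48 were found, on 17 chromosomes, with 8 on chromosome 14, 7 on chromosome 17 and 4 on chromosome 1. They were followed through chromatin maps of PTBP1, an RNA-binding protein best known for repressing exons, and RUNX1, a hematopoietic transcription factor. The cells were MOLM-13, an established acute myeloid leukemia line, and the labels name no treatment, time course or genetic change. CUT&Tag, in which an antibody guides a transposase to its target, was made with PTBP1 antibody (2 libraries), RUNX1 antibody (2 libraries) and control IgG (1 library). CUT&RUN, which uses a nuclease in place of the transposase, was made for PTBP1, RUNX1, H3K27me3 and IgG with 2 libraries each. The values come from 1 list of 9370 PTBP1 peaks and 1 list of 7688 RUNX1 peaks. The lists carry no assay or replicate name, so no difference between them could be set against replicate spread and no test was made. Because 1 cell line was used and no control peak list entered, the main counts are given beside the same counts over all protein-coding genes. Over all these genes, 26.4% had a PTBP1 peak and 21.3% a RUNX1 peak within 1000 bases of the gene's 5′ end.

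The proteasome degrades proteins that carry ubiquitin chains. Its 20S core is a barrel of alpha and beta rings with the proteolytic sites inside, and the 19S cap recognizes, unfolds and feeds substrates through a ring of ATPases. The activator made of PSME1 and PSME2 and the inducible beta subunits, raised by interferon, serve antigen processing in immune cells. The subunits of the core and cap are made in fixed proportion, and the transcription factor NFE2L1, acting at antioxidant response element (ARE) motifs, is known to raise them together when proteasome activity falls. Proteasome inhibitors are used against blood cancers, mainly myeloma.

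Of the 48 proteasome genes, 23 (47.9%) had a PTBP1 peak within 1000 bases of the gene's 5′ end, against 26.4% of all protein-coding genes. The paper reports both targets mainly at promoters of active genes, and the comparison was not limited to genes expressed in these cells. Whether the shares differ from those of other expressed genes was not tested. A RUNX1 peak lay there at 14 genes (29.2%), against 21.3%. Peaks of both lists were found at 12 genes (25.0%, all genes 17.3%), a PTBP1 peak without RUNX1 at 11 (22.9%, all genes 9.05%), a RUNX1 peak without PTBP1 at 2 (4.17%, all genes 3.98%), and neither at 23 (47.9%, all genes 69.7%). Here and below, a target without the other, or alone, means that no peak of the other list was called there, not that its signal was absent. The paper reports that nearly all PTBP1 peaks carried RUNX1 signal, and the reverse. The PTBP1 share was further above the share of all genes than the RUNX1 share was. Among the 23 genes with PTBP1, RUNX1 was also called at 52.2%, while it was called at 65.7% of the 5281 protein-coding genes with PTBP1. In the other direction, 85.7% of the 14 genes with RUNX1 had PTBP1, against 81.3% of 4266.

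**Figure D1:**
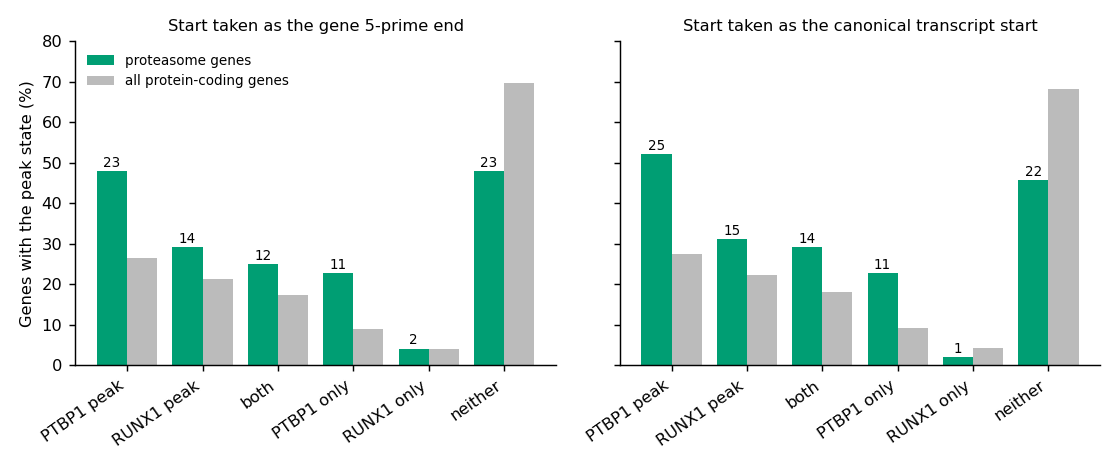
Share of proteasome genes (green, with the number of genes above each bar) and of all 20033 protein-coding genes (grey) in each peak state, in percent. The left panel takes the start as the 5′ end of the gene and the right panel as the start of the canonical transcript; the PTBP1 bar of the proteasome genes stands at 47.9% and 52.1%, and the RUNX1 bar at 29.2% and 31.2%.

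The annotated 5′ end is the outermost base of any transcript of a gene, and in 8 of the 48 genes (16.7%, all genes 16.6%) it lay more than 1000 bases from the start of the canonical transcript, the reference isoform of the annotation. With the canonical start, PTBP1 was called at 25 genes (52.1%, all genes 27.5%), RUNX1 at 15 (31.2%, all genes 22.4%), both at 14 (29.2%, all genes 18.2%) and neither at 22 (45.8%, all genes 68.2%). The states of 4 genes differed between the starts. PSMA1, an alpha subunit, and PSMB9, an inducible beta subunit, had both peaks only at the canonical start, 20S assembly chaperone PSMG2 had its PTBP1 peak only there, and the activator subunit PSME3 had its PTBP1 peak only at the 5′ end. Counting either start, 27 genes had a peak and 21 had none.

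The catalytic core was marked at some subunits of each ring and not at others. In the alpha ring, PTBP1 was called at the 5′ end of 3 of 7 genes (all genes 26.4%) and RUNX1 at 3 of 7 (all genes 21.3%). At this start PSMA5 was the gene with both. Its PTBP1 fold enrichment was 23.3 and its RUNX1 fold enrichment 36.8. Fold enrichment is the authors' ratio of fragments at the peak's summit to the background, each with 1 added. It can be ordered within a list but not compared between lists. PTBP1 peaks usually stood on a background of 0.72 fragments and RUNX1 peaks on 0.33. Those values held for 95.1% of PTBP1 peaks and 94.9% of RUNX1 peaks, so among these fold enrichment follows the summit fragments alone. The counting error of a peak is given as the exact 95% Poisson interval of its summit fragments, and covers no variation between libraries. For PSMA5 these intervals were 16.7 to 31.6 for PTBP1 (39 fragments) and 27.4 to 48.6 for RUNX1 (48 fragments). PSMA3 and PSMA7 had PTBP1 without RUNX1, at fold enrichments of 12.8 and 16.9. The PSMA7 peak covered the starts of both PSMA7 and SS18L1, which begins 329 bases away on the opposite strand, and its summit lay between them, so it cannot be assigned to either gene. PSMA4 had RUNX1 without PTBP1, and its fold enrichment of 8.27 rested on 10 fragments (interval 4.36 to 14.6). PSMA1 also had RUNX1 without PTBP1 at the 5′ end, at 6.19 (3.98 to 9.23) over a background of 2.72 fragments. At its canonical start PSMA1 had both, at 14.0 (9.06 to 20.6, 23 fragments) for PTBP1 and 12.03 (7.06 to 19.4, 15 fragments) for RUNX1. No peak of either list was within 1000 bases of either start of PSMA2, PSMA6 or the testis subunit PSMA8.

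In the beta ring, PTBP1 was called at 4 of 7 genes (all genes 26.4%) and RUNX1 at 2 of 7 (all genes 21.3%). PSMB1 and PSMB3, noncatalytic subunits, had both. PSMB1 had the second highest PTBP1 fold enrichment at a 5′ end, 32.6 (interval 24.7 to 42.2, 55 fragments), with 12.8 for RUNX1 (7.63 to 20.3, 16 fragments). Those summits lay 911 and 919 bases upstream of PSMB1 and 84 and 76 bases from the start of TBP, the TATA-binding protein gene on the opposite strand, which starts 995 bases from PSMB1. At PSMB3 the values were 27.3 (20.2 to 36.3) for PTBP1 and 15.8 (9.94 to 24.0) for RUNX1. Of the catalytic subunits, PSMB5, which carries the chymotrypsin-like activity and is the main target of bortezomib, had PTBP1 alone at 14.5 (9.52 to 21.3), and PSMB6 and PSMB7 had no peak at either start. PSMB2 had PTBP1 alone at 12.8, and PSMB4 had none.

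The inducible subunits PSMB8, PSMB9 and PSMB10 replace catalytic subunits in the immunoproteasome, and PSMB11 is restricted to the thymus. At the 5′ ends 3 of the 4 genes had no peak (all genes 69.7%), and PSMB10 had PTBP1 alone at 8.72 (5.03 to 14.2, 14 fragments). That peak reached into the window from inside the gene, with its summit 1102 bases downstream of the 5′ end, in intron 4 of the canonical transcript. An unnamed protein-coding gene starts inside the peak, 847 bases downstream of the PSMB10 5′ end on the same strand. The peak therefore cannot be assigned to either gene. PSMB9 showed the second highest PTBP1 fold enrichment of the canonical starts, 38.4 (29.7 to 48.7, 65 fragments), with RUNX1 at 21.1 (14.1 to 30.3, 27 fragments). The PTBP1 peak, chr6:32853180-32854596, and the RUNX1 peak, chr6:32853122-32854198, had summits 216 and 304 bases upstream of the canonical start, between it and the start of TAP1, a peptide transporter of antigen presentation 376 bases away on the opposite strand. The annotated 5′ end of PSMB9 lies 10056 bases further upstream, 543 bases from that of PSMB8, and there no peak was within 1000 bases. The nearest peaks to the canonical start of PSMB8 were 5142 bases (PTBP1) and 5343 bases (RUNX1) away. PSMB11 had none at its start.

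**Figure D2:**
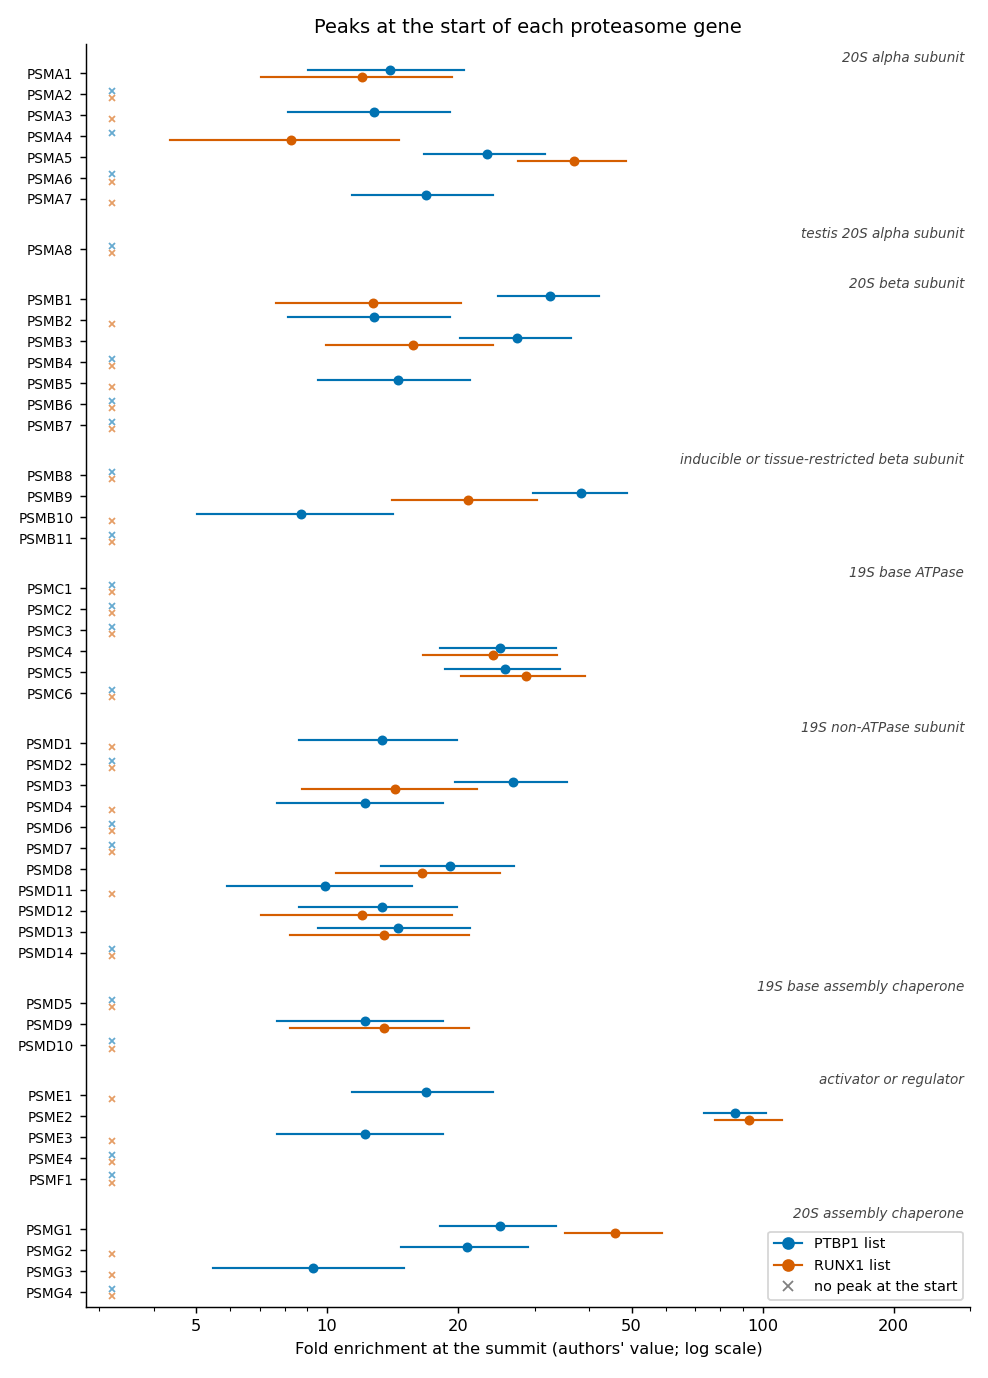
Fold enrichment at the summit of the strongest peak within 1000 bases of the 5′ end or canonical start of each of the 48 genes, on a log scale, for PTBP1 (blue) and RUNX1 (orange), grouped by role. Lines are exact 95% Poisson intervals of the summit fragments and crosses at the left mark genes with no peak; PSME2 stands at 86.6 and 93.2, and its intervals reach lower limits of 73.3 and 77.6, above the highest upper limits of the other genes, 48.7 and 58.8.

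The 19S cap was likewise marked at some subunits and not at others. Of the 6 ATPases, which unfold substrates, PSMC4 and PSMC5 had both peaks and PSMC1, PSMC2, PSMC3 and PSMC6 had neither. PSMC4 had fold enrichments of 25.0 (18.2 to 33.6) for PTBP1 and 24.1 (16.6 to 33.8) for RUNX1, with summits 4 bases apart and 138 and 134 bases upstream of the start. PSMC5 had 25.6 (18.7 to 34.3) and 28.6 (20.3 to 39.1), with summits 117 bases apart. No ATPase had a peak of 1 list alone, a state that was also uncommon over all genes (PTBP1 alone 9.05%, RUNX1 alone 3.98%). Both peaks were at 2 of 6 ATPases (all genes 17.3%).

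Among the 11 non-ATPase subunits, PTBP1 was called at 7 (all genes 26.4%) and RUNX1 at 4 (all genes 21.3%). All 4 also had PTBP1, as did 81.3% of all genes with RUNX1. PSMD3, PSMD8, PSMD12 and PSMD13 had both, with PTBP1 fold enrichments from 13.4 (PSMD12) to 26.7 (PSMD3) and RUNX1 fold enrichments from 12.03 (PSMD12) to 16.5 (PSMD8). At PSMD3 the PTBP1 and RUNX1 summits were the same base, 269 bases upstream of the start. PSMD13 starts 35 bases from SIRT3, a mitochondrial deacetylase gene on the opposite strand, and its PTBP1 peak spans both starts, while its RUNX1 peak ends 41 bases short of the PSMD13 5′ end. PSMD1, PSMD4 and PSMD11 had PTBP1 alone, at 13.4, 12.2 and 9.88. PSMD4 encodes a ubiquitin receptor, and PSMD1 and PSMD11 are structural subunits. PSMD2, PSMD6, PSMD7 and the deubiquitinase PSMD14 had no peak at either start.

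Among the 3 assembly chaperones of the 19S base, 1 had both peaks (all genes 17.3%) and 2 had neither (all genes 69.7%). PSMD9 had both, at 12.2 (7.68 to 18.5) for PTBP1 and 13.5 (8.2 to 21.2) for RUNX1, with summits 19 bases apart, and PSMD5 and PSMD10 had neither. Of the 4 chaperones of the 20S core, PSMG1 had both. Its RUNX1 fold enrichment of 45.9 (35.2 to 58.8, 60 fragments) was the second highest of the proteasome genes and lay above 93.2% of protein-coding genes with a RUNX1 peak at the 5′ end, and its PTBP1 fold enrichment was 25.0 (18.2 to 33.6). PSMG3 had PTBP1 alone at 9.30 (5.46 to 15.0), with the summit 201 bases inside the canonical transcript, in the 5′ UTR exon. PSMG2 had PTBP1 alone at the canonical start, at 20.9 (14.8 to 28.9), in a promoter shared with CEP76, a centrosomal protein gene that starts 265 bases away on the opposite strand. PSMG4 had no peak at either start.

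PSME2, with PSME1 a subunit of the interferon-inducible activator that opens the 20S core, had the highest fold enrichment of the proteasome genes in both lists. PTBP1 reached 86.6 (73.3 to 102, 148 fragments) and RUNX1 93.2 (77.6 to 111, 123 fragments). These values were above 97.8% and 98.7% of the protein-coding genes with a peak of that list at the 5′ end. The PTBP1 peak, chr14:24146536-24148049, and the RUNX1 peak, chr14:24146443-24147605, overlapped by 1070 bases and had summits 1 base apart, 298 and 297 bases upstream of the canonical start. RNF31, which encodes a subunit of the linear ubiquitin ligase complex, starts 73 bases from the canonical start of PSME2 on the opposite strand, so the summits lie within RNF31, upstream of the canonical PSME2 transcript and 662 and 663 bases inside the outermost PSME2 annotation. PSME1 had PTBP1 alone at 16.9 (11.4 to 24.1), with the nearest RUNX1 peak 5201 bases from its 5′ end. PSME3, the nuclear activator, had PTBP1 alone at 12.2 (7.68 to 18.5), 126 bases upstream of the 5′ end and 9138 bases upstream of the canonical start, and its canonical start, 47 bases from that of BECN1, had no peak. The activator PSME4 and the regulator PSMF1 had none.

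The promoter sequences of the genes on which these results turn are given from the RefSeq promoter table of GRCh38.p14 (250 bases before to 50 after the start, read 5′ to 3′ along the gene). They include intergenic sequence, the first exon and, where the gene has one there, part of a divergent neighbour. Capitals mark TGTGGT or TGCGGT on either strand, the RUNX-type motif, and so read ACCACA or ACCGCA where it lies on the other strand. PSME2 is shown as the gene with the highest fold enrichment in both lists (chr14:24146561-24146860, minus strand), PSMB9 for its separate canonical start (chr6:32853942-32854241, plus strand), and PSMA2 as the first ubiquitous subunit by symbol without a peak (chr7:42932125-42932424, minus strand). None of the 3 holds the motif.
PSME2: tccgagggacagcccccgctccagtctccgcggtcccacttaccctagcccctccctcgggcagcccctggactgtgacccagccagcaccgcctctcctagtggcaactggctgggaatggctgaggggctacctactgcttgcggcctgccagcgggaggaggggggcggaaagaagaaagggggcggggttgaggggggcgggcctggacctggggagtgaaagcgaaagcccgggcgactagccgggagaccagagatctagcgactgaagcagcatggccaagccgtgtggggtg
PSMB9: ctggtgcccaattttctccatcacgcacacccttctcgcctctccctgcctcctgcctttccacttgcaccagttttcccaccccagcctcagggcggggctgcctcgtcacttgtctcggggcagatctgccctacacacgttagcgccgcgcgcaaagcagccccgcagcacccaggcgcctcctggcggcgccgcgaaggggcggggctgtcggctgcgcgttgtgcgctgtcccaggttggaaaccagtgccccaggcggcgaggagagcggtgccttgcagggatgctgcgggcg
PSMA2: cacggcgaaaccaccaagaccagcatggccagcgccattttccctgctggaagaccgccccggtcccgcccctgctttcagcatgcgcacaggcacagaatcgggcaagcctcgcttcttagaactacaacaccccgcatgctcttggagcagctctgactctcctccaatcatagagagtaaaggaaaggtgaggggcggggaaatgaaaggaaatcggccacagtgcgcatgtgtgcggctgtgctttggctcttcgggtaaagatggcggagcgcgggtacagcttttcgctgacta

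The RUNX-type motif was found in 6 of the 42 member promoters in the table (14.3%) and in 18.7% of the 15365 protein-coding promoters. The promoters of PSMA7, PSMB1, PSMB6, PSMB7, PSMD4 and PSMG3 were not among them. By state at the canonical start, it was present in 4 of 13 genes with both peaks (all genes in that state 20.1%), 1 of 8 with PTBP1 alone (13.5%) and 1 of 20 with neither (18.2%). The 4 with both peaks and the motif were PSMG1, PSMC5, PSMD9 and PSMD13. Each of these promoters held a motif inside the RUNX1 peak, a count that was not made over all genes. They are shown to place the motif against the summit: it was 84 bases from the RUNX1 summit in PSMG1 (chr21:39183402-39183701, minus strand), 117 in PSMC5 (chr17:63827181-63827480, plus strand), 13 at its nearest in PSMD9 (chr12:121888540-121888839, plus strand) and 2 at its nearest in PSMD13 (chr11:236726-237025, plus strand).
PSMG1: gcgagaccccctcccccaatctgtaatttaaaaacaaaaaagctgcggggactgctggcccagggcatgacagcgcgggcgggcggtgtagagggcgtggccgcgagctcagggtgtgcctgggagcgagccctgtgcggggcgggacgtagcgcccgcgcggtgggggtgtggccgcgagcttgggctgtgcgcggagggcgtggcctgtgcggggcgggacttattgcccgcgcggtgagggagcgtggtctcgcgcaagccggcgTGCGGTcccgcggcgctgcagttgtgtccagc
PSMC5: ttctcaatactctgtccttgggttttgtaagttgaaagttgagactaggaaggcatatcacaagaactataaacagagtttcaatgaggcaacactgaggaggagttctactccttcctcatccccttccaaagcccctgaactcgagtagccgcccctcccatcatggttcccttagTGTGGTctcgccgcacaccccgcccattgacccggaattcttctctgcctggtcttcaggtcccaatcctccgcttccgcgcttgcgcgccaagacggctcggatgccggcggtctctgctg
PSMD9: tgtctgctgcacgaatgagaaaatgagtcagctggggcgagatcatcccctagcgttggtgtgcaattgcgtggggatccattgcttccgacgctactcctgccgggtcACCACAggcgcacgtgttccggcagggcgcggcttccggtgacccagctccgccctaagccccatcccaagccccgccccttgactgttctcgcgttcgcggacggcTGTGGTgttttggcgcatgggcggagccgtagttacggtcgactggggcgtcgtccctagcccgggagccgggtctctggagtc
PSMD13: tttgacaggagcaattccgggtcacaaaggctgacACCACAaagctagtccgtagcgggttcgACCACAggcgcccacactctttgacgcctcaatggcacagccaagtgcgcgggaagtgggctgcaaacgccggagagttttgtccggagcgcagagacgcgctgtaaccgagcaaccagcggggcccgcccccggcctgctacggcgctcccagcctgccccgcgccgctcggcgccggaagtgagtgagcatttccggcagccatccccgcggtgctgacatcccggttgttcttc

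Within 50 bases of a summit the motif was found at 2 of 15 RUNX1 summits at canonical starts (13.3%, protein-coding genes 12.8%) and at 4 of 25 PTBP1 summits (16.0%, protein-coding genes 6.85%). PSMD9 was in both of these counts and PSMD13 in the RUNX1 count. The other PTBP1 summits with a motif were at PSMA3, PSMC5 and PSMD4, of which PSMA3 and PSMD4 had no RUNX1 peak.

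The ARE-type motif, TGACNNNGC on either strand, was the second sequence searched, because NFE2L1 acts on proteasome genes through such elements. It was present in 12 of 42 member promoters (28.6%), against 14.3% of all promoters. It was found in 8 of 13 promoters with both peaks (all genes in that state 16.7%), 2 of 8 with PTBP1 alone (18.4%) and 2 of 20 with neither (13.1%). In 7 of those 8 genes with both peaks (87.5%) a promoter match lay inside both peaks, against 79.6% of the 490 protein-coding genes with both peaks and a match. The exception was PSMD12, whose promoter match was outside the peaks, although another match lay within 50 bases of both of its summits. Within 50 bases of a summit, the motif was found at 1 of 15 RUNX1 summits (6.67%, protein-coding genes 5.16%) and at 4 of 25 PTBP1 summits (16.0%, protein-coding genes 4.95%). As examples, a promoter match of 4 of the 8 genes with both peaks and a match is shown with 10 bases either side. The motif is in capitals, read along the gene, from chr17:38752627-38752655 (PSMB3, plus strand), chr14:24146767-24146795 (PSME2, minus strand), chr17:39980760-39980788 (PSMD3, plus strand) and chr21:39183616-39183644 (PSMG1, minus strand).
PSMB3: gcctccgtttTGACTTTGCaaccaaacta
PSME2: ccctggactgTGACCCAGCcagcaccgcc
PSMD3: tcccctttgtTGACTCGGCcatcggcctg
PSMG1: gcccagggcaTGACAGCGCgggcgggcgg

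These matches began 104 bases (PSMB3), 175 bases (PSME2), 37 bases (PSMD3) and 183 bases (PSMG1) upstream of the start. Their distances to the RUNX1 summit were 121, 126, 236 and 113 bases, and to the PTBP1 summit 134, 127, 236 and 41 bases. PSMD3 had another promoter match, not shown, 306 bases from both summits, inside the PTBP1 peak and outside the RUNX1 peak. The motif is short and loosely specified, and no map of NFE2L1 was used here, so the matches describe sequence only.

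Other promoter motifs were spread differently over the peak states. CCGGAA, the core of ETS sites, was present in 22 of 42 member promoters (52.4%), against 23.7% of all promoters. It was in 15 of 20 proteasome promoters with neither peak, among them PSMC1, PSMC2, PSMC3, PSMC6, PSMD2, PSMD7 and PSMD14, while 19.9% of all promoters in that state had it. Of the promoters with both peaks 5 of 13 had it (all genes 31.0%). The SP/KLF motif GGGCGG was in 29 of 42 (69.0%, all 61.8%), with 11 of 13 in genes with both peaks (all genes in that state 82.0%) and 13 of 20 with neither (53.0%). The NF-Y motif CCAAT was in 18 of 42 (42.9%, all 36.6%). Runs of 12 or more pyrimidines on either strand, a sequence that PTBP1 binds in RNA, were in 14 of 42 (33.3%), against 44.8% of all promoters, and in 3 of 13 with both peaks (all genes in that state 41.8%). Median GC content was 62.2% in the members and 63.7% in all promoters, and within the members it was 62.0% with both peaks and 61.8% with neither, whereas over all genes it was 68.0% and 61.0%.

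**Figure D3:**
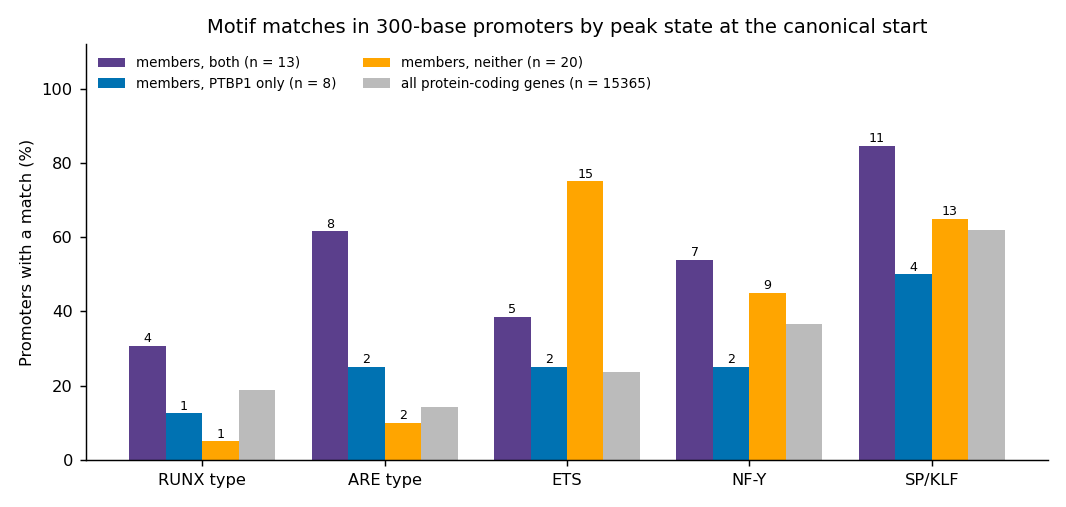
Share of 300-base promoters with a match to each motif on either strand, in percent, for proteasome genes with both peaks, PTBP1 alone or neither at the canonical start (counts above the bars) and for all protein-coding promoters (grey); the gene with RUNX1 alone, PSMA4, is left out. The ARE-type motif is in 8 of 13 promoters with both peaks and 2 of 20 with neither, and the ETS motif in 5 of 13 and 15 of 20.

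The strength of the called peaks was close to that of other genes. At 5′ ends the median PTBP1 fold enrichment was 14.5 over 23 proteasome genes, with a range of 8.72 to 86.6, and 15.7 over 5281 protein-coding genes. For RUNX1 it was 15.0 over 14 genes, with a range of 6.19 to 93.2, and 15.8 over 4266. At canonical starts, 8 of 25 genes were above the upper quartile of PTBP1 fold enrichment of protein-coding genes with a peak there, 24.4 (PSME2, PSMB9, PSMB1, PSMB3, PSMD3, PSMC5, PSMC4 and PSMG1). For RUNX1 4 of 15 were above the upper quartile of 24.1 (PSME2, PSMG1, PSMA5 and PSMC5). All the members' peaks stood on the usual background of their list except the RUNX1 peak at the 5′ end of PSMA1, at 6.19 over a background of 2.72 fragments, which lay beside the start of PDE3B on the opposite strand. PTBP1 fold enrichment was higher where RUNX1 was also called, with a median of 25.0 over 12 genes (12.2 to 86.6) against 12.8 over 11 genes without RUNX1 (8.72 to 16.9). These ranges overlap, and over all protein-coding genes the medians were 19.2 and 11.6.

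Where both lists had a peak, the peaks overlapped in 14 of 14 genes at the canonical start. The summits were at most 200 bases apart in 12 of the 14, the exceptions being PSMA1 (232 bases) and PSMD13 (234 bases). Both peaks of a gene had to reach the same window around its start, which by itself favours overlap and close summits. The counts of overlaps and of close summits were made for the members only, so they set the members apart from no other genes. The median distance between summits was 65.5 bases, against 79.0 over 3637 protein-coding genes, and 39.0 against 79.0 when the start was the 5′ end. As a description across these 14 genes, log2 fold enrichments of the lists had a Pearson r of 0.724 and a Spearman rho of 0.494, and over the 3637 genes 0.606 and 0.564. The genes share libraries and are not replicates. PSME2 lies far from the rest on both axes.

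**Figure D4:**
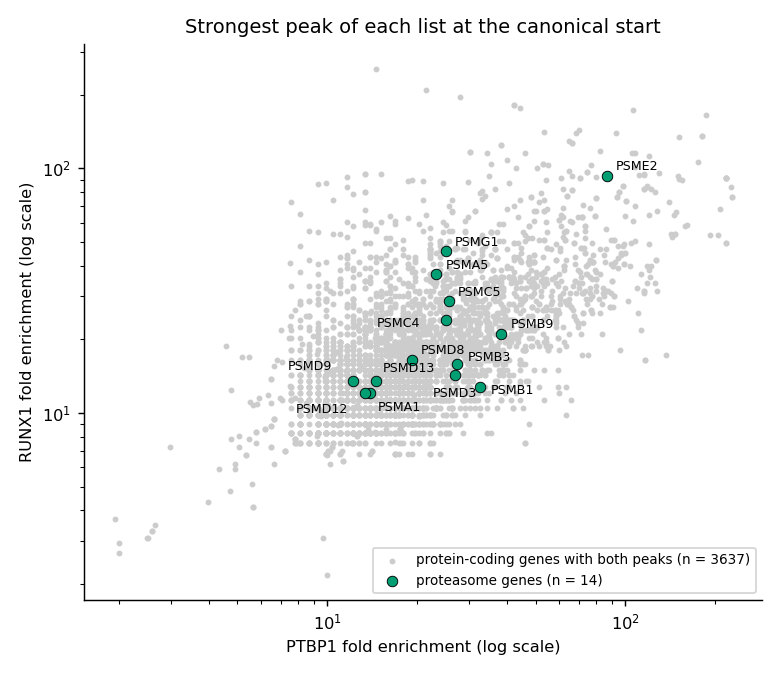
PTBP1 against RUNX1 fold enrichment (both log scales) of the strongest peak of each list within 1000 bases of the canonical start, for the 14 proteasome genes with both (green, named) and all 3637 protein-coding genes with both (grey). PSME2, at 86.6 and 93.2, is the proteasome gene at the upper right, and the other 13 lie inside the main cloud between 12.2 and 38.4 for PTBP1.

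Summits lay mostly just upstream of the canonical start. For PTBP1 18 of 25 were upstream, 3 in a 5′ UTR exon, 2 in a coding exon and 2 in an intron, and for RUNX1 11 of 15 were upstream, 2 in a 5′ UTR exon, 1 in a coding exon and 1 in an intron. The median signed distance was -109 bases for PTBP1 (all genes -121) and -134 bases for RUNX1 (all genes -104). Within 200 bases of the start lay 17 of 25 PTBP1 and 9 of 15 RUNX1 summits. The counts of summits by position were made for the members only. The median absolute distance was 138 bases for PTBP1 (all genes 179) and 189 bases for RUNX1 (all genes 177). The coding-exon summits were in the first exons of PSMD8 (both lists) and PSMD12 (PTBP1).

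Elsewhere in the gene bodies peaks were few. Away from the 5′ end, PTBP1 had a peak in 4 of 48 genes (8.33%, all genes 12.4%) and RUNX1 in 3 of 48 (6.25%, all genes 11.5%). Of these, 3 of the 4 PTBP1 peaks (PSMA1, PSMB9, PSMG2) and 2 of the 3 RUNX1 peaks (PSMA1, PSMB9) lay at the canonical start. The remaining PTBP1 peak was in intron 10 of PSME1, 2417 bases from the 5′ end, at 9.30 (5.46 to 15.0) and at the start of an annotated long noncoding RNA. The remaining RUNX1 peak was in PSMA6 at chr14:35285280-35285945, 6896 bases from the 5′ end and 6853 bases upstream of the canonical start, at 12.03 (7.06 to 19.4), and was the only member peak that lay at no annotated start.

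**Figure D5:**
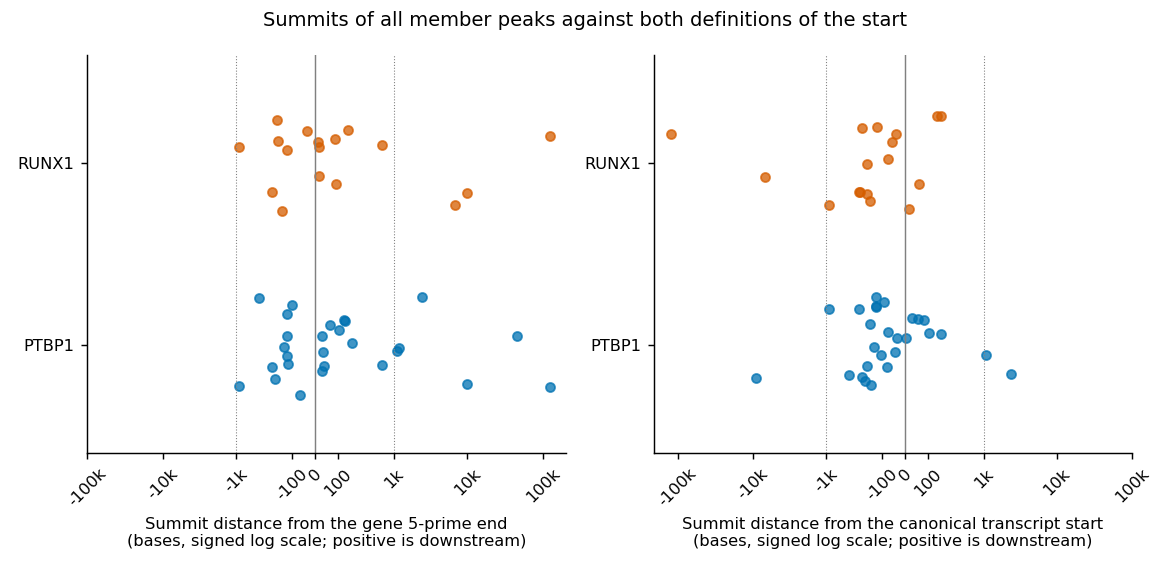
Signed distance in bases, on a signed log scale, of every member peak's summit from the gene's 5′ end (left) and from the canonical start (right) for PTBP1 (blue) and RUNX1 (orange), with dotted lines at 1000 bases and vertical jitter without meaning. Summits far downstream of the 5′ end on the left, such as those of PSMB9 at 9840 and 9752 bases, lie next to the start on the right, while the PTBP1 peak of PSME3 lies 9138 bases upstream there and the RUNX1 peak of PSMA6 is far from both.

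The 22 genes with neither list at the canonical start were not near misses of the window. Their nearest PTBP1 peak was 5142 (PSMB8) to 4989707 bases (PSMD6) away, with a median of 81685.5 bases, and their nearest RUNX1 peak 5343 (PSMB8) to 650661 bases (PSMA2) away, with a median of 64503 bases. PSMB6, with peaks at 5795 and 5563 bases, was the next nearest after PSMB8 in both lists. A site with fewer fragments than the caller's limit is not in a list, and the weakest peaks in the lists had 11 (PTBP1) and 8 (RUNX1) fragments at the summit, so an absent peak means that none was called at this depth.

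Neighbouring genes share many of these starts. Another protein-coding gene started within 1000 bases of the 5′ end of 14 of the 48 genes (29.2%), against 17.4% of all protein-coding genes. PTBP1 was called at 6 of these 14 (42.9%, all genes with such a neighbour 48.3%) and at 17 of the 34 without (50%, all genes 21.8%). RUNX1 was called at 5 of 14 (35.7%, all genes 37.3%) and at 9 of 34 (26.5%, all genes 17.9%). Chromosome 17, chosen after its values were seen, had PTBP1 at the 5′ end of 6 of 7 proteasome genes and RUNX1 at 4 of 7, where 39.1% and 26.2% of all its genes had them. The exception for PTBP1 was PSMB6. On chromosome 14, PTBP1 was called at 4 of 8 and RUNX1 at 1 of 8, against 35.2% and 28.1%.

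The other genes of the pathway were a list of 27 genes for further subunits, ubiquitin precursors, shuttle factors and regulators. PTBP1 was called at the 5′ end of 15 of them (55.6%, all genes 26.4%), RUNX1 at 13 (48.1%, all genes 21.3%), both at 9 (33.3%, all genes 17.3%) and neither at 8 (29.6%, all genes 69.7%). For the 48 proteasome genes the PTBP1 and RUNX1 shares were lower, 47.9% and 29.2%. ADRM1, a ubiquitin receptor of the cap, had fold enrichments of 36.6 (PTBP1) and 17.3 (RUNX1), and USP14, a cap deubiquitinase, 18.0 and 13.5. VCP, the ATPase that extracts ubiquitinated proteins, had 25.0 and 11.3. AKIRIN2, which brings proteasomes into the nucleus, had 17.4 and 12.8. NFE2L1 had RUNX1 alone at 6.39, and its relative NFE2L2 had both at the canonical start, at 14.0 and 19.5. SEM1, the small cap subunit, POMP, the core maturation factor, ECPAS, PITHD1 and UBQLN2 had no peak at either start.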

How the data were processed

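Chromatin of MOLM-13 cells was profiled by CUT&Tag and CUT&RUN in 13 libraries. Read pairs were mapped by the authors with Bowtie2 against hg38, those of mapping quality above 30 were retained and deduplicated, and MACS3 called peaks from fragments at a q-value of 1e-07. The submitters' processing notes also name FastQC, cutadapt, SAMtools, Picard and bedtools 2.30.0. The 2 deposited lists, PTBP1 and RUNX1, show the target alone. CUT&Tag was assumed, as the assay for which peak calling is described, and pooling of replicates is not given in the sources used here. The deposited fold enrichment is a ratio of summit pileup to background, each with 1 added. The lists also hold the deposited −log10 p-value and −log10 q-value and a deposited score derived from the latter. The lists hold no value of a single library and no library total, so depth enters only through the fragments at each summit.

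A whole fragment count and a background were solved from the fold enrichment and −log10 p-value of each peak, with exact 95% Poisson intervals for counting error only. A background above 1.5 times the usual value was called raised. Starts were the 5′ ends of GENCODE v44 genes, or canonical transcript starts, with 1000 bases either side, and a peak overlapping that window was at the start. Gene-body peaks overlapped the gene and not that window. For each gene and list the strongest peak was used. Annotations (exon, intron, UTR) refer to the summit's place in the canonical transcript, and coordinates are 1-based. RefSeq promoters (250 bases before and 50 after the start) were found for 42 of 48 members and were identical to hg38 at the same coordinates in 42 of 42. Work used Python 3.11.15, numpy 2.4.6, pandas 2.3.3 and scipy 1.17.1, and the assignment of peaks was tested on simulated data.

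With 1 list per target no test was made, and the main counts stand beside those of all protein-coding genes. The members, the pathway list, the motifs and the alternatives were chosen with earlier results of these data known. All members are named by role. Intervals are given for the genes strongest in either list and those with gene-body peaks. Genes with a peak of 1 list only have at least the fold enrichment. Promoters were printed for the highest gene in each list, the first ubiquitous gene without a peak and the genes with a RUNX-type motif inside the RUNX1 peak. Limited to 3 by fold enrichment, that last set kept a tie for its final place, and PSMB9 was added after its values were seen. The values of 1 gene of the pathway list are not reported here, though it is in the list's counts.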

Additional observations from a re-analysis of the deposited data

How the results depend on the processing

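Of 40 alternatives, 37 stayed within 1.5 times the count or within the interval of the median. The number of proteasome genes with a PTBP1 peak at the start ranged from 19 to 26, with RUNX1 from 9 to 15 and with both from 8 to 14. The highest counts came from taking any annotated transcript start. At the 5′ end no setting gave more than 23, 14 and 12. These alternatives were counted for the members only, without the share of all genes. When the first base of the gene had to lie inside the peak, RUNX1 fell from 14 genes to 9, and the median RUNX1 fold enrichment rose from 15.0 to 24.1. When peaks at the start of any other annotated gene were left out, gene-body peaks fell from 4 to 0 for PTBP1 and from 3 to 1 for RUNX1. The cause of the first of these was not tested, and the last follow from where the peaks lie. The median summit distance was 22.0 bases for PTBP1 and -10.5 bases for RUNX1 from the 5′ end, and -109 and -134 bases from the canonical start. No paired analysis was possible because the lists carry no replicate numbers, and no library could be left out. The weakest called peaks had 11 (PTBP1) and 8 (RUNX1) fragments at the summit, and sites with fewer were not called.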
